A study of Mus musculus with 11 samples.

Results

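Thbs4-positive fibroblasts (FBs) were a small set of PDGFRβ+ liver cells defined by their UMIs of Thbs4, a UMI being 1 tagged RNA molecule. They were taken from both 10X Chromium libraries of the PF isolation, the digestion that recovers portal FBs and vascular smooth muscle cells (VSMCs). A member had at least 300 genes and at most 30% mitochondrial UMIs, at least 2 UMIs of Thbs4, fewer than 2 of Pi16, fewer than 3 of Cxcl13 and Penk together, and 0 of Wif1. The rule found 74 members among 5737 cells of the uninjured library and 42 among 5648 cells of the CCl4 library, 116 of 11385 in all. The 10X libraries of the whole series held 30999 cells. Comparison cells, called other FBs below, were the remaining cells of the same library with at least 4 summed UMIs of the FB markers Cd34, Clec3b and Dpt, 3983 uninjured and 2868 after CCl4. Since the gates were set on values of these same cells, every 10X difference between members and other FBs is given as a description.

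The study profiled single hepatic mesenchymal cells of adult male C57BL/6 mice that carried the Pdgfrb-BAC-eGFP transgene, sorted as live GFP+ CD45- CD102- cells. GFP followed the Pdgfrb promoter, so FBs that do not use that promoter were not sampled. Uninjured mice were compared with mice given intraperitoneal carbon tetrachloride (CCl4), a hepatotoxin that scars the liver around central veins, for 6 weeks, and 3 mice were pooled in each 10X library. Another 3 10X libraries came from the HSC isolation, which favours hepatic stellate cells, of uninjured mice, mice 72 h after a single CCl4 injection and mice given CCl4 for 6 weeks. Full-length Smart-seq2 profiles came from 6 plates of sorted wells of uninjured mice, mice given CCl4 for 6 weeks and mice 14 days after bile duct ligation (BDL), which scars the portal tracts. With 1 library per condition, no test between conditions was possible in the 10X data, and intervals cover counting error only.

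Thrombospondin 4, the product of Thbs4, is a secreted pentameric glycoprotein of the extracellular matrix that binds collagen and is best known from tendon, muscle and heart. Portal FBs lie in the connective tissue around the bile ducts and portal vessels and build its collagen and elastic fibres. The genes of the gate mark other FB states, among them Pi16, a peptidase inhibitor of adventitial FBs found in many organs. Thbs4 (ENSMUSG00000021702) is at chr13:92751590-92794818 on the minus strand of GRCm38.

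Most cells with Thbs4 also carried Pi16 and were therefore not members. Of 554 uninjured cells with at least 2 UMIs of Thbs4, 465 (83.9%) had at least 2 of Pi16, and of 250 cells after CCl4, 194 (77.6%) did. The gate on Cxcl13 and Penk took 76 and 58 of those cells, and the gate on Wif1 took 10 and 4, with overlap among gates. Members made up 1.82% of members and other FBs in the uninjured library (95% exact binomial interval 1.44 to 2.29) and 1.44% after CCl4 (1.04 to 1.95), so the intervals overlapped. With each cell thinned to 3000 UMIs the shares were 2.21% and 1.90%, against 1.81% and 1.48% for the same cells before thinning, and 1108 and 1162 shallower cells were left out. With at least 1 UMI of Thbs4 the shares were 3.90% and 4.76%. With cells of 3 or more markers of another cell type left out they were 1.84% and 2.01%. Both settings turned the order of the libraries. Members were as deep as other FBs in the uninjured library, with a median of 5010 UMIs against 4966, and shallower after CCl4, with 5002 against 6452. Their median mitochondrial share was 1.97% and 2.52%, against 2.04% and 2.29% in other FBs.

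Thbs4 was found mainly in the PF libraries. In the HSC isolation 2 of 6850 uninjured cells, 34 of 7310 cells 72 h after CCl4 and 4 of 5454 cells after 6 weeks had a UMI. At least 1 UMI was found in 15.2% of uninjured PF cells and 7.99% of CCl4 PF cells. Among cells with VSMC markers and fewer than 4 UMIs of the FB markers, the share was 1.66% of 1564 uninjured cells. Their median depth was 3176 UMIs. After CCl4 it was 2.36% of 2707 such cells, at 4356 UMIs. In other FBs the share was 19.0% uninjured and 11.99% after CCl4, at deeper medians of 4966 and 6452 UMIs. The part of free RNA in these shares was not tested. Members held a median of 4 Thbs4 UMIs in each library and at most 19 uninjured and 29 after CCl4. Near the gate, 20 uninjured and 10 CCl4 members had exactly 2 UMIs, 23 and 12 had 3 or 4, and 31 and 20 had 5 or more. Both PF libraries shared 45 cell barcodes, within the 33 to 74 seen between any pair of 10X libraries.

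Members were checked against their label by markers. At least 4 summed UMIs of Cd34, Clec3b and Dpt were present in 65 of 74 uninjured members and 41 of 42 CCl4 members, so the remaining 9 and 1 were FBs by the Thbs4 gate alone. Decorin (Dcn), a collagen-binding proteoglycan of FBs, was present in all members, and the actin-severing gelsolin (Gsn) as well. The label named Sfrp2, Angptl1 and Cilp beside Thbs4. At least 2 of these 3 genes had a UMI in 55 of 74 uninjured and 29 of 42 CCl4 members, while 7 and 3 members had none. Of other FBs, 22.5% had 2 and 5.25% had all 3 in the uninjured library, and 19.3% and 4.92% after CCl4.

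Summed levels are given as a gene's share of all UMIs of the group, scaled to counts per 1e6 (CPM), and a gene was called past the fold when the ratio was at least 2 or at most 0.5 with at least 50 CPM in the higher group. Angptl1, a secreted angiopoietin-like glycoprotein, was at 788 CPM in uninjured members against 315 in other FBs, 2.50-fold (95% interval from the counts 2.22 to 2.81). After CCl4 it was at 1429 CPM against 200.1, 7.14-fold (6.34 to 8.02). The CCl4 members with the most Angptl1 held 76, 48 and 27 UMIs, and the interval covers counting error only. Angptl1 was detected in 57 of 74 and 31 of 42 members, and the members were the higher group in both libraries. Cilp, a cartilage intermediate layer protein that also restrains growth factor signalling, was at 738 against 279 CPM uninjured and 833 against 357 after CCl4, folds of 2.64 and 2.33. Sfrp2, a secreted Wnt modulator, was at 249 against 138 CPM uninjured, a fold of 1.80 that stayed under the limit, and at 486 against 114 after CCl4, 4.27-fold. Sfrp2 was held by few cells, 23 of 74 and 18 of 42, and the 3 cells with the most UMIs gave 44.7% and 48.6% of its counts.

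Genes higher in members than in other FBs in both libraries numbered 15 (0.504% of 2975 tested in both), and genes lower in both numbered 44 (1.48%), with 0 past the fold in opposite ways. The higher genes depended on the Thbs4 gate. With at least 1 UMI, which gave 159 and 141 members, 31 genes were higher and 28 lower in both libraries, and 1 of the 15 and 15 of the 44 were among them, Cilp being at 0.986 and Col8a1 at 0.920 after CCl4. In the uninjured library alone 44 genes were higher (1.36% of 3239) and 90 lower (2.78%). In the CCl4 library 146 were higher (4.27% of 3423) and 146 lower (4.27%). The CCl4 members were fewer and their sum shallower, 216185 UMIs against 378323 uninjured. The 15 higher genes were Angptl1, Angptl7, Ap1s2, Apod, Cilp, Clu, Col8a1, Fibin, Fmod, Gja1, Postn, Prg4, Tnmd, 6330403K07Rik and Gm26802.

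**Figure D1:**
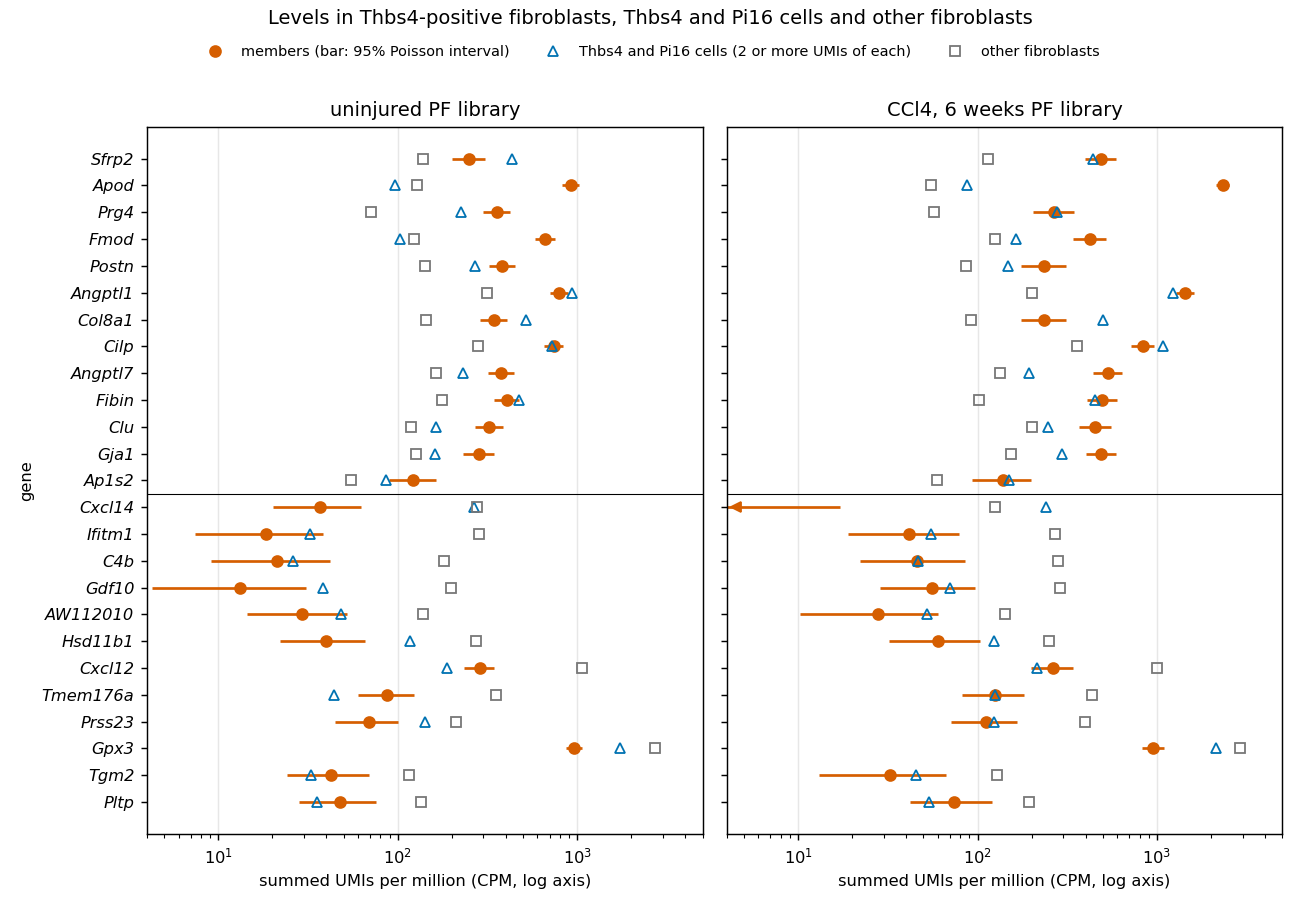
Summed levels (CPM, log axis) of Sfrp2 and of the 12 leading genes each way in members (filled circles with 95% Poisson intervals), cells with 2 or more UMIs of both Thbs4 and Pi16 (triangles) and other FBs (squares), in the uninjured and CCl4 PF libraries. Members lie right of other FBs for the upper genes and left of them for the lower ones, and the arrow marks Cxcl14 at 0 UMIs in CCl4 members.

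Of the 15 higher genes, Fibin, a secreted protein, was at 404 CPM in uninjured members against 177 in other FBs, and at 495 against 102 after CCl4, with UMIs in 49 of 74 and 28 of 42 members. Col8a1, a short-chain collagen of vessel walls, was at 344 against 144 CPM uninjured and 236 against 91.7 after CCl4. Postn, a matricellular protein induced in scars, was at 381 against 142 CPM and 236 against 86.0. All 3 were higher in members of both libraries by 2.29- to 4.85-fold. Angptl7, another angiopoietin-like secreted protein, was at 378 against 164 CPM uninjured and 532 against 133 after CCl4. Prg4 (lubricin), the lubricant of joints and tendons, was at 357 against 70.7 CPM uninjured and 268 against 57.6 after CCl4. Of the cellular proteins, the gap junction subunit Gja1 was 2.23- and 3.19-fold higher, the clathrin adaptor subunit Ap1s2 2.23- and 2.34-fold, and the secreted chaperone Clu 2.71- and 2.25-fold.

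A few cells carried much of some of these levels. Apod, a lipid-binding lipocalin, had the widest gap, 917 against 128 CPM uninjured (7.19-fold) and 2322 against 55.3 after CCl4 (42.0-fold). Only 17 uninjured and 8 CCl4 members had any Apod UMI, and the 3 highest cells held 94.5% and 98.6% of its counts. The highest were 1 uninjured member with 219 Apod UMIs and 1 CCl4 member with 384, and neither had a tendon gene UMI. With each gene's 3 highest member cells left out, Angptl1 and Prg4 were the 2 of 15 genes that stayed past the fold in both libraries. Other FBs were left whole in this step, so it could only lower a fold, and the loss of the other genes is a description. Of the 135 Prg4 UMIs of uninjured members, 98 lay in the 9 cells with tendon genes described next.

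**Figure D2:**
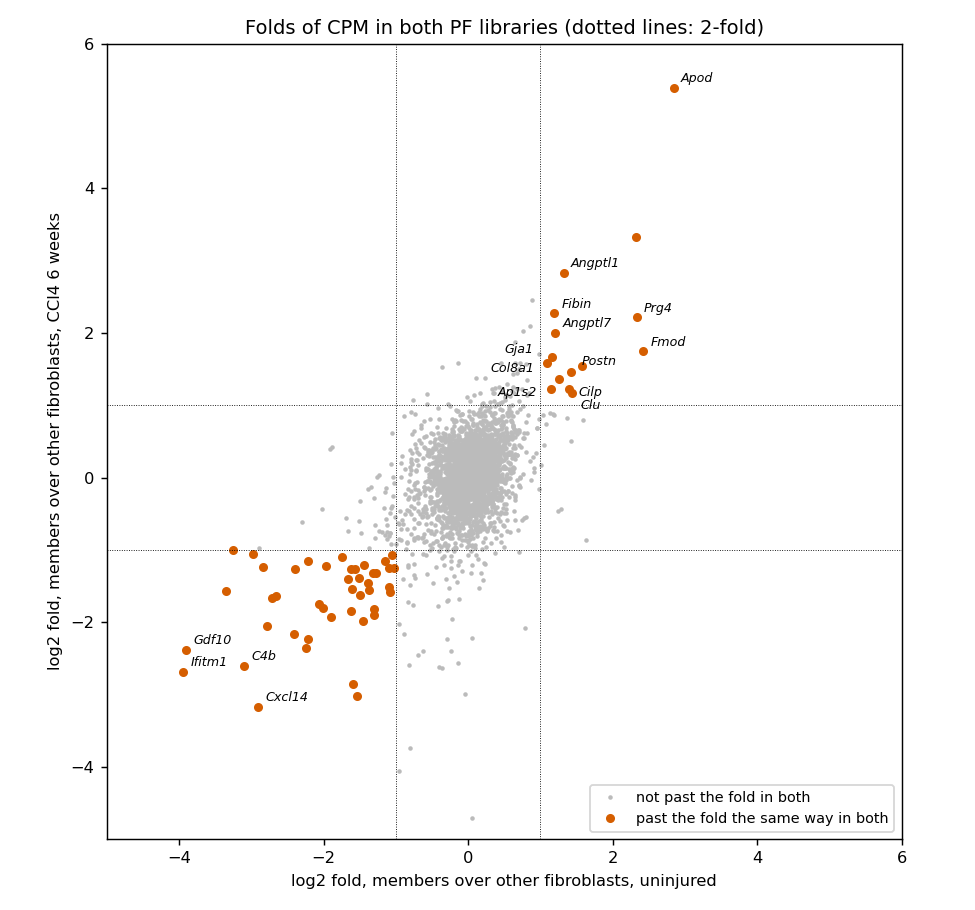
Each point is a gene, with the log2 fold of members over other FBs in the uninjured library on the x axis and in the CCl4 library on the y axis. Orange points are the 15 genes higher and 44 lower in both libraries, dotted lines mark 2-fold, and no gene lies past the fold in opposite ways.

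A subset of uninjured members carried tendon and fibrocartilage genes. Of the 10 genes of that list, Fmod and Prg4 reached 50 CPM in other FBs. Chad, Comp, Kera and Tnmd reached it in uninjured members alone, and Tnmd alone of these in CCl4 members, so that passing the level fixed their direction and nothing is read from it. Scx, Mkx, Cilp2 and Tnc stayed under it in members of both libraries. Tnmd (tenomodulin), a membrane protein of tendon cells, was at 89.9 CPM in 8 uninjured members and 69.4 in 2 CCl4 members, against 17.9 and 6.93 in other FBs. UMIs of at least 3 list genes were found in 9 of 74 uninjured members (12.2%, exact binomial interval 5.72 to 21.8), in 1 of 42 CCl4 members, and in 33 (0.829%) and 12 (0.418%) other FBs. Of those 9 uninjured cells, 7 lacked the FB markers, and their median of summed Cd34, Clec3b and Dpt was 0 UMIs against 28 in the other 65 members.

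The 9 cells were picked by these genes, so their levels beside those of the other 65 uninjured members describe the pick and support nothing further. Fmod (fibromodulin), which organises collagen fibrils, was at 7294 CPM in the 9 cells against 122.9 in the 65. Chad (chondroadherin), a cartilage matrix protein, was at 2455 CPM against 0, with 70 UMIs in 7 cells. Kera (keratocan), a proteoglycan of cornea and tendon, was at 1508 CPM in 4 cells against 0. Comp, the fifth thrombospondin and a marker of tendon and cartilage, was at 1438 CPM against 2.86, and Prg4 was at 3436 against 106. Thbs4 itself was at 2700 CPM in the 9 cells and 841 in the 65. Of the label genes, which the pick did not use, Sfrp2 was at 596 and 220.1 CPM, Cilp at 1157 and 703 and Angptl1 at 1122 and 760. With the tendon-gene members left out, the fold over other FBs in the uninjured library was 0.994 for Fmod, and Prg4 at 105.8 CPM against 70.7 was under the limit too, while 10 of the 15 higher and 39 of the 44 lower genes remained past the fold in both libraries.

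**Figure D3:**
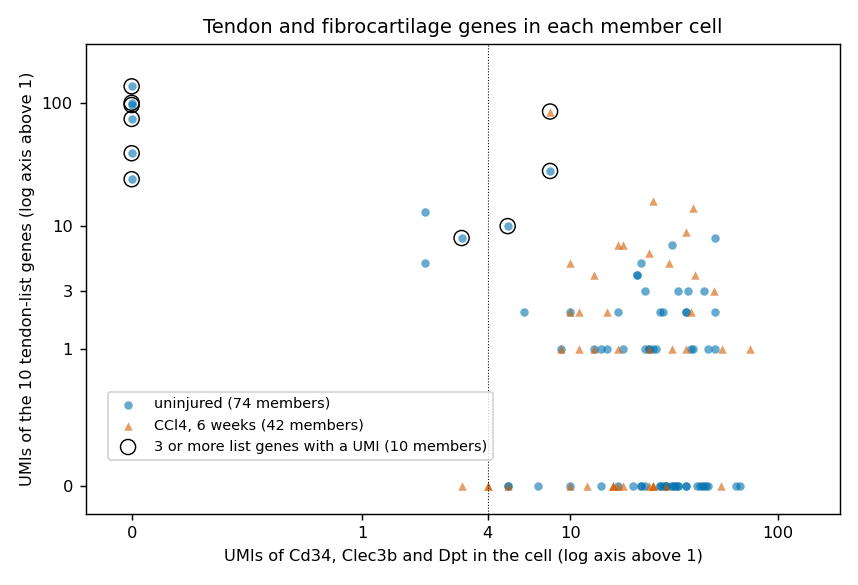
Each point is 1 member cell, with its summed UMIs of Cd34, Clec3b and Dpt on the x axis and of the 10 tendon-list genes on the y axis (both linear to 1 and log above). Circled cells have at least 3 list genes, 9 uninjured and 1 after CCl4, and 6 of them have no FB marker UMI at all.

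Among the 44 genes lower in members of both libraries were the chemokines Cxcl12 and Cxcl14. Cxcl12, the ligand of Cxcr4, was at 286 CPM in uninjured members against 1060 in other FBs (0.269) and at 264 against 1002 after CCl4 (0.263). Cxcl14, another chemokine, was at 37.0 against 277 CPM uninjured, and had 0 UMIs in CCl4 members against 125 CPM, a ratio of at most 0.111 when 3 counts are allowed. Both chemokines were thus lower in members of each library. C4b, a complement component, was at 21.2 against 181 CPM and 46.3 against 281. Gdf10, a TGF-beta superfamily member, was at 13.2 against 197 CPM uninjured and 55.5 against 289 after CCl4. Ifitm1, an interferon-induced membrane protein, was at 18.5 against 284 CPM and 41.6 against 269. Gpx3, an extracellular glutathione peroxidase abundant in portal FBs, was at 960 against 2705 CPM and 948 against 2915.

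Hsd11b1, which regenerates active glucocorticoid, was at 0.146 and 0.240 of its level in other FBs, the serine protease Prss23 at 0.324 and 0.279, the crosslinking enzyme Tgm2 at 0.366 and 0.251, and the lipid transfer protein Pltp at 0.352 and 0.381. Also among the 44 were the interferon-inducible Ifi203, Ifi204, Ifi205 and Mndal, the lectin Colec11 and the Wnt antagonist Sfrp1 (0.369 and 0.431). Igfbp3, an IGF-binding protein, stood at 0.127 uninjured and 0.478 after CCl4.

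Gene lists are given by their counts, beside 1.36% of all genes higher and 2.78% lower in the uninjured library and 4.27% each way after CCl4. A list with 0 or 1 gene past the fold is near these shares, and nothing is read from it. Of 6 complement genes tested uninjured, 0 were higher and 2 lower (median fold 0.609), and of 7 after CCl4, 0 were higher and 4 lower (0.464), Serping1, an inhibitor of C1, staying at 0.858 and 0.851. Of chemokines and cytokines, 2 of 10 were higher and 3 lower uninjured, and 0 of 8 were higher and 2 lower after CCl4. The 2 higher ones were Ccl7 and Ccl2, and all 140 Ccl2 UMIs of uninjured members came from 1 cell. Fibrillar collagens passed the fold in neither library (0 of 5 each, medians 1.11 and 1.52), Col1a1 being at 1575 against 1459 CPM uninjured and 2530 against 1669 after CCl4. Of other collagens, 1 of 11 was higher and 1 lower uninjured, and 4 of 12 were higher and 1 lower after CCl4. Those 4 were Col8a1, the basement membrane zone collagen Col15a1 (2.61-fold), the fibril-associated Col12a1 (4.10-fold) and Col6a6 (2.23-fold).

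Beside the same shares over all genes (1.36% and 2.78% uninjured, 4.27% each way after CCl4), elastic fibre genes gave 0 of 14 past the fold uninjured and 2 of 14 higher after CCl4, elastin (Eln, 2.83-fold) and the microfibril protein Mfap4 (2.103-fold). Of the small leucine-rich proteoglycans, 2 of 9 were higher uninjured, Fmod and Aspn (2.59-fold), and 1 of 9 after CCl4, Fmod. Among 8 Wnt genes tested, 1 was higher and 2 lower uninjured, and 3 were higher and 1 lower after CCl4. The higher ones were Sfrp4 in the uninjured library (2.69-fold) and Wnt5a (2.33-fold), Dkk3 (2.24-fold) and Sfrp2 after CCl4, while the agonist Rspo3 was lower in the uninjured library (0.316). IGF-axis genes gave 0 of 6 higher and 1 lower uninjured, and after CCl4 1 higher, Igfbp6 (2.25-fold), and 3 lower, Igfbp3, Igfbp4 and Igfbp5.

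Lineage transcription factors, set beside those shares, gave 0 of 10 past the fold uninjured. After CCl4, Wt1 (2.21-fold) and Meox2 (2.32-fold) were higher and Tcf21 lower (0.0750, 1 UMI in members) of 9. Of 12 injury and myofibroblast genes tested in each library, Postn alone was higher uninjured, and after CCl4 Postn and the collagen-triple-helix protein Cthrc1 were higher and the contractile Acta2 and Tagln lower. Acta2 and Tagln are also VSMC markers, of which 3 of 6 were lower in CCl4 members (median 0.496), their sum being 1947 CPM against 4154 in other FBs, and the part of smooth muscle RNA was not tested. Of 11 FB markers tested, Gpx3 was lower in both libraries and Col15a1, Igfbp6 and Mfap4 were higher after CCl4. Immediate early genes, which dissociation can induce, gave 0 of 9 past the fold in each library (medians 0.903 and 0.970), and heat shock genes 1 of 7 lower uninjured and 0 of 7 after CCl4. None of the 8 cell cycle genes had enough UMIs to be tested.

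Cells with at least 2 UMIs of both Thbs4 and Pi16, 462 uninjured and 193 after CCl4 among the other FBs, were the most like comparison. The reference for them was FBs with 0 Thbs4 UMIs that met no other gate, against which members were past the fold higher for 29 genes (0.971% of 2987 tested in both libraries) and lower for 72 (2.41%). Against the same reference, members passed for 13 of the 15 higher and 34 of the 44 lower genes. In cells with both genes, 6 of the 15 were at a ratio of at least 2 to this reference in both libraries. For these cells the ratio alone was used, without the limit of 50 CPM. They were Angptl1, Cilp, Col8a1, Fibin, Prg4 and Tnmd. Nothing is read from Tnmd, which reached 50 CPM in members but not in other FBs. Of the 44 lower genes, 21 were at a ratio of at most 0.5 in both libraries, among them Cxcl12, C4b, Gdf10 and Ifitm1. No share over all genes is given for these cells, so both counts are a description. Angptl1 was at 937 CPM in cells with both genes uninjured and 1228 after CCl4, and Sfrp2 at 433 and 443. Members exceeded them past the fold in both libraries for 6 genes (0.203% of 2954 tested) and lay below them for 13 (0.44%). The 6 were Apod, Fmod, the Cdc42 effector Cdc42ep3, the G protein regulator Rgs3, the small GTPase Rrad and Gm13305. Of these, Apod rested on the 3 cells that held nearly all of its counts, and Fmod in uninjured members without the 9 tendon-gene cells was at 122.9 CPM against 103.3, under the limit. Among the 13 lower genes, Myoc (myocilin), a secreted glycoprotein, was at 137 against 601 CPM uninjured and 92.5 against 566 after CCl4. Mfap5, a microfibril protein of adventitial FBs, was at 907 against 1902 CPM and 569 against 1306. Cd248 (endosialin), a stromal surface protein, was at 132 against 266 CPM and 32.4 against 103. The rest of the 13 were B3gnt8, Ces1d, Cxcl14, Hsd11b1, Ifi205, Lynx1, Ntrk2, Pcsk6, Pgf and Prss12.

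Levels were also followed by the number of Thbs4 UMIs in cells with FB markers that passed the other gates. Angptl1 in uninjured cells was at 90.6 CPM with 0 Thbs4 UMIs (1072 cells), 464 with 1 (62 cells), 922 with 2 (20 cells), 531 with 3 or 4 (20 cells) and 778 with 5 or more (25 cells). After CCl4 it was at 56.6, 296, 683, 899 and 2103 CPM over 861, 44, 10, 11 and 20 cells. For Angptl1, cells just outside the gate, with 1 UMI, thus lay between the cells without Thbs4 and the members in both libraries. Sfrp2 was at 134, 538, 143, 100.2 and 429.5 CPM uninjured, so that cells with 1 UMI were the highest. After CCl4 Sfrp2 was at 133, 153, 176, 449.5 and 663 CPM. Col8a1 after CCl4 was at 45.2 CPM with 1 UMI, against 54.3 with 0. Cilp was at 189, 306, 485, 631 and 913 CPM uninjured, and at 303, 292, 273, 674 and 1203 after CCl4, where cells with 2 UMIs were no higher than cells without Thbs4. Cxcl12 ran the other way, at 1989, 1132, 399, 271 and 248 CPM uninjured and 1407, 894, 195, 104 and 388 after CCl4. Apod had no order of this kind, being at 9640 CPM in CCl4 cells with 2 Thbs4 UMIs and 28.4 in those with 5 or more.

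**Figure D4:**
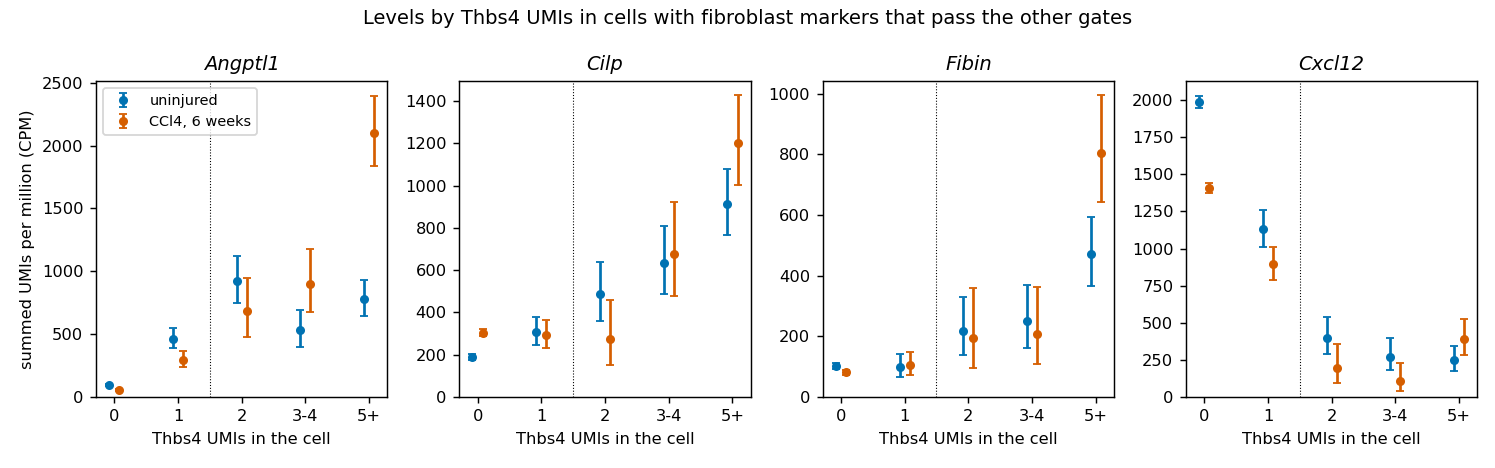
CPM of Angptl1, Cilp, Fibin and Cxcl12 (y axis, linear, 95% Poisson intervals) by the number of Thbs4 UMIs in the cell (x axis), in cells with FB markers that pass the other gates, uninjured and after CCl4. Dotted lines mark the gate of 2 UMIs. Fibin is at 470 CPM uninjured and 805 after CCl4 in cells with 5 or more, and Cxcl12 is lower on the right of the gate than on its left.

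Between conditions, 236 genes were past the fold higher in CCl4 than uninjured members (6.74% of 3503 tested) and 157 lower (4.48%). The same fold rule gave 57 higher (1.83% of 3116) and 14 lower (0.449%) among other FBs, whose sums were far deeper, so the counts cannot be set against each other. With the 3 highest member cells of each library left out gene by gene, 74 of the 236 and 88 of the 157 remained past the fold. In all, 87 genes were then higher and 220 lower. Taking 3 of 42 CCl4 members weighs more than taking 3 of 74 uninjured ones, so this step favours lower ratios. Which genes it kept or lost, here and below, is a description. The median fold over all genes was 1.02 in members and 0.972 in other FBs.

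Among the genes higher after CCl4, Rgs5, a G protein regulator of pericytes, was at 138.8 CPM in CCl4 members against 13.2 uninjured, 10.5-fold (4.03 to 34.7), and 13.3-fold in other FBs, with UMIs in 22 of 42 and 5 of 74 members. Cxcl1, a neutrophil-attracting chemokine, was 5-fold higher in members and 1.02-fold in other FBs. Igfbp3 was 4.76-fold higher, from 47.6 to 227 CPM, against 1.27-fold in other FBs, and 3 cells held 73.3% of the Cxcl1 and 71.4% of the Igfbp3 counts of CCl4 members. Some of the leading folds rested on very few cells. The interferon-stimulated Ifit1 had 28 UMIs in 3 CCl4 members, and the 3 highest cells held 94.8% of the Ifit3 counts and 95.8% of those of Iigp1, an immunity-related GTPase. The immunoproteasome subunit Psmb8 had UMIs in 13 of 42 CCl4 members and 7 of 74 uninjured ones (5.50-fold, 1.11-fold in other FBs). The 3 highest cells held 54.5% of its CCl4 counts, and without them its level was under 50 CPM, so that it was no longer called. The level limit thus ended the call, and the loss says nothing about the size of its fold. Tnnt2, cardiac troponin T, was 5.73-fold higher, with 77.8% of its counts in 3 cells. Adamts1, a secreted matrix protease detected in 32 of 42 members, was at 426 against 148 CPM, 2.88-fold, and 1.49-fold in other FBs. Of the 8 genes with the largest folds, 3 (Rgs5, Cxcl1 and Igfbp3) stayed past the fold without each gene's 3 highest cells, and 2 did with other-type cells left out, as described below. Rgs5 is itself among the pericyte-type markers by which those cells were left out, so nothing is read from its value there.

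Among the genes lower after CCl4, Ly6c1, a surface protein shared by endothelial cells and adventitial FBs, had 75 UMIs in 16 uninjured members and 1 UMI after CCl4, 0.0233-fold, against 0.635 in other FBs. With Ly6c1 counted, 4 of the 5 adventitial genes tested were past the fold lower in members (median 0.410, against 4.48% of all genes lower), and the list median was 0.831 in the deeper sums of other FBs, Cd248 being at 0.245, Cd55 at 0.410 and Sema3c at 0.477. Without each gene's 3 highest cells Ly6c1, Cd248 and Cd55 stayed past the fold and Sema3c did not. Thy1, a surface glycoprotein of FBs, was at 18.5 CPM against 105.7 (0.175), and at 0.848 in other FBs. Pthlh, which encodes a parathyroid hormone-related peptide, was at 0.175 in members and 0.285 in other FBs, in 3 of 42 cells against 18 of 74. The growth factor Ptn was at 13.9 CPM against 116, with 84.1% of the uninjured counts in 3 cells. Ccl7 had 86 UMIs in 7 uninjured members and 1 after CCl4. Chad and Kera had 0 UMIs in CCl4 members and lay in the tendon-gene cells of the uninjured library. Fn1, the fibronectin gene, was at 0.326 in members and 0.763 in other FBs, and Aspn at 0.337 and 0.492.

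Over all genes 6.74% were past the fold higher and 4.48% lower between conditions in members, and lists are given by their counts beside these shares, with no test between lists. Of the tendon genes Chad, Comp and Kera were lower, each at 50 CPM or more in uninjured members alone. Of the 4 thrombospondins tested, Comp (0.250) and Thbs1 (0.350) were lower and Thbs2 and Thbs3 were not past the fold. Heat shock genes gave 2 of 7 higher (median 0.905), Hspb1 (2.19-fold) and Dnajb1 (2.62-fold), and chemokines and cytokines 1 higher, Cxcl1, and 2 lower, Ccl2 and Ccl7, of 9 (1.03). Fibrillar collagens gave 0 of 5 past the fold (median 1.30, Col1a1 1.61-fold and Col3a1 1.33-fold), complement 0 of 5 (1.25), immediate early genes 0 of 9 (0.856) and small leucine-rich proteoglycans 1 of 9 lower, Aspn (list median 1.09). Of 15 proteases and inhibitors 2 were higher and 0 lower (1.18), and of 10 lineage transcription factors 0 were higher and 2 lower (0.967), Tcf21 at 0.0673 and Meox1 at 0.223. Without each gene's 3 highest cells Cxcl1, Chad, Aspn and Meox1 stayed past the fold. Comp, Kera, Thbs1, Hspb1, Dnajb1, Ccl2, Ccl7 and Tcf21 did not.

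Markers of other cell types moved with the condition. The 6 VSMC markers summed to 1166 CPM in uninjured members and 1160 in other FBs, and to 1947 and 4154 after CCl4, Acta2, smooth muscle actin, being the most abundant in members, at 515 and 962 CPM. After CCl4 6 of 6 of these markers were past the fold higher in other FBs (median 3.34), beside 1.83% of all genes. Of 6 in members, Myh11 was higher and Pln lower (median 1.69), beside 6.74% of all genes higher and 4.48% lower. Member sums were far shallower, so these counts cannot be set against each other. Cells with at least 3 markers of another cell type were 24.3% of members and 24.9% of other FBs uninjured, and 69.0% and 77.9% after CCl4. The 5 pericyte-type markers summed to 31.7 and 132 CPM uninjured and 240.5 and 662 after CCl4, with Rgs5 the most abundant. Leucocyte markers (Ptprc, Cd52, Tyrobp, Lyz2, Cd74) were all at 0 UMIs in CCl4 members and summed to 7.93 CPM uninjured. Hepatocyte markers summed to 37.0 CPM in uninjured and 4.63 in CCl4 members, led by Ttr and Apoa1. Cholangiocyte markers summed to 31.7 and 60.1 CPM, led by Sox9 and Spp1, endothelial markers to 7.93 and 9.25, led by Kdr, and Schwann cell markers to 7.93 and 0. Of the mesothelial list, Wt1 was the only gene with UMIs, at 74.0 and 148 CPM. The HSC markers summed to 764 and 527 CPM, nearly all Ecm1, which FBs share, while Reln had 1 UMI in uninjured and 0 in CCl4 members. With all cells of 3 or more other-type markers left out, 56 uninjured and 13 CCl4 members remained, and 126 of the 236 higher and 74 of the 157 lower genes between conditions were still past the fold, as were 2 of the 8 genes with the largest folds and 6 of the 8 with the smallest. Of the genes past the fold against other FBs in both libraries, 11 of 15 and 23 of 44 were.

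Smart-seq2 wells offered cells that the gates had not been drawn from. Of 2292 wells of mice, 2065 were kept, at a median of 445569 reads (124186 to 657323), and 804 were FB wells by at least 200 reads per 1e6 reads (RPM) of Cd34, Clec3b and Dpt together. Thbs4 reached 50 RPM in 37 of them (4.60%), and 22 of those 37 also had Pi16 at 50 RPM or more. The full set of gates left 10 member wells, 1.24% of FB wells (exact binomial interval 0.598 to 2.28), 6 of them on 1 plate, too few to be tested on their own. The test was therefore run on all Thbs4-positive FB wells whatever their Pi16, summed per plate for the plates with at least 5 such wells, which gave 17 wells against 139 other FB wells on plate 1, 9 against 141 on plate 3 and 5 against 156 on plate 4. Whether portions of different plates came from the same mice is not in the labels, so that p-values measure the spread between plates. Each plate mixed mice and conditions, and the 2 classes of wells did not hold them in the same proportions. Uninjured wells were 2 of the 17 Thbs4-positive and 52 of all 156 FB wells on plate 1, 6 of 9 and 48 of 150 on plate 3, and 2 of 5 and 55 of 161 on plate 4, the others being from BDL mice on plates 1 and 4 and from CCl4 mice on plate 3. A CCl4 mouse of plate 3 gave 30 FB wells and 0 Thbs4-positive ones. In the plate sums, condition and mouse therefore cannot be told apart from Thbs4.

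Uap1, an enzyme of amino sugar synthesis, was, beside Thbs4 itself, by which the wells were chosen and which is not counted, the 1 gene higher in Thbs4-positive wells (0.00766% of 13050 tested, edgeR quasi-likelihood test with Benjamini-Hochberg adjustment and plate as a block). It was at 928 RPM against 122 on plate 1, 627 against 75.3 on plate 3 and 1865 against 271 on plate 4, a log2 fold change of 2.92 ± 0.26 (SE) with adjusted p = 0.0395 by edgeR. In the 10X libraries Uap1 stood at 1.03-fold uninjured and 0.433 after CCl4 in members against other FBs. The 4 lower genes (0.0307%) were Saa3, Ntrk2, Cfb and Myh11. Cfb, complement factor B, was at 6.83 RPM against 97.0, 54.0 against 879 and 15.9 against 241 on the 3 plates (log2 -3.93 ± 0.33, adjusted p = 0.0395 by edgeR). Myh11, smooth muscle myosin, was at 14.3 RPM against 419, 4.45 against 392 and 4.46 against 224 (log2 -5.65 ± 0.49, adjusted p = 0.0395 by edgeR). Ntrk2, a neurotrophin receptor, had 3, 1 and 0 reads in the Thbs4-positive wells against 264, 307 and 176 RPM in other FB wells (adjusted p = 0.017 by edgeR). Saa3, an acute phase gene, had 0, 15 and 0 reads against 6.31, 7538 and 24.2 RPM (adjusted p = 0.00216 by edgeR). The median log2 fold change over all genes was -0.80, and 687 genes had an unadjusted p under 0.05. With the genes of the gates left out of the adjustment, Uap1, Cfb and Myh11 were at adjusted p = 0.0474 by edgeR and Ntrk2 at 0.0255.

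Within mice the calls were lost, in a fit of only 2 pairs of sums. In sums over the wells of 1 mouse on 1 plate, which 1 BDL and 1 uninjured mouse gave with at least 5 Thbs4-positive wells, 0 genes were higher and 0 lower by edgeR, with 184 at an unadjusted p under 0.05. Uap1 was at 50.6 RPM against 98.5 in the BDL mouse and 221 against 79.3 in the uninjured mouse, so that its direction differed. Saa3 was at 0 reads against 0.618 RPM and 0.611 RPM against 1.39, near 0 in both classes. Cfb was lower in both mice, at 10.3 RPM against 60.8 and 5.50 against 53.2, as were Myh11, at 19.7 against 78.0 and 5.50 against 696, and Ntrk2, with 1 read in each mouse against 92.8 and 418 RPM. The number of calls also depended on the plates, with 0 higher and 1 lower gene without plate 1, 7 and 10 without plate 3, and 0 and 1 without plate 4. DESeq2 on the same sums gave 52 and 977. On simulated counts, with 100 genes changed 4-fold and 100 changed 64-fold, the edgeR test called 9 unchanged genes. The number of genes that truly differ in the wells is not known and may be far smaller. Those 9 calls therefore cannot be set against the 5 genes called here.

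Genes named from the 10X comparison did not pass the adjusted threshold in these wells, and their direction per plate was as follows. Of the 12 named higher genes, 4 were higher on all 3 plates (33.3%, against 7.59% of all genes tested), namely Ap1s2, Cilp, Postn and Gja1, and 2 on none, Apod and Fmod. Of the 12 named lower genes, 11 were lower on all 3 plates (91.7%, against 28.1% of all genes), Cxcl14 being the exception. In sums within mice Gja1 was at a log2 fold change of -0.57 and Prss23, one of those 11, at 0.11, each in the opposite direction. Sfrp2 was at 2329 RPM against 351 on plate 1, 2850 against 146 on plate 3 and 158 against 25.5 on plate 4, higher on each (log2 3.20 ± 0.42, adjusted p = 0.139 by edgeR). Ap1s2 was at 449 against 65.0, 323 against 46.6 and 389 against 49.5 RPM (log2 2.85 ± 0.31, adjusted p = 0.0767 by edgeR). Cilp differed by log2 1.29 ± 0.23 (adjusted p = 0.325 by edgeR) and Postn by 2.66 ± 0.52 (0.406). Ifitm1 was at 71.3 RPM against 386, 37.9 against 326 and 4.95 against 149, a log2 fold change of -3.40 ± 0.57 (adjusted p = 0.286 by edgeR), and Cxcl12 differed by -1.39 ± 0.32 (0.577). The label gene Angptl1 was scarce in these wells, at 0 RPM against 6.21 on plate 1, 14.8 against 0.676 on plate 3 and 250 against 2.70 on plate 4.

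**Figure D5:**
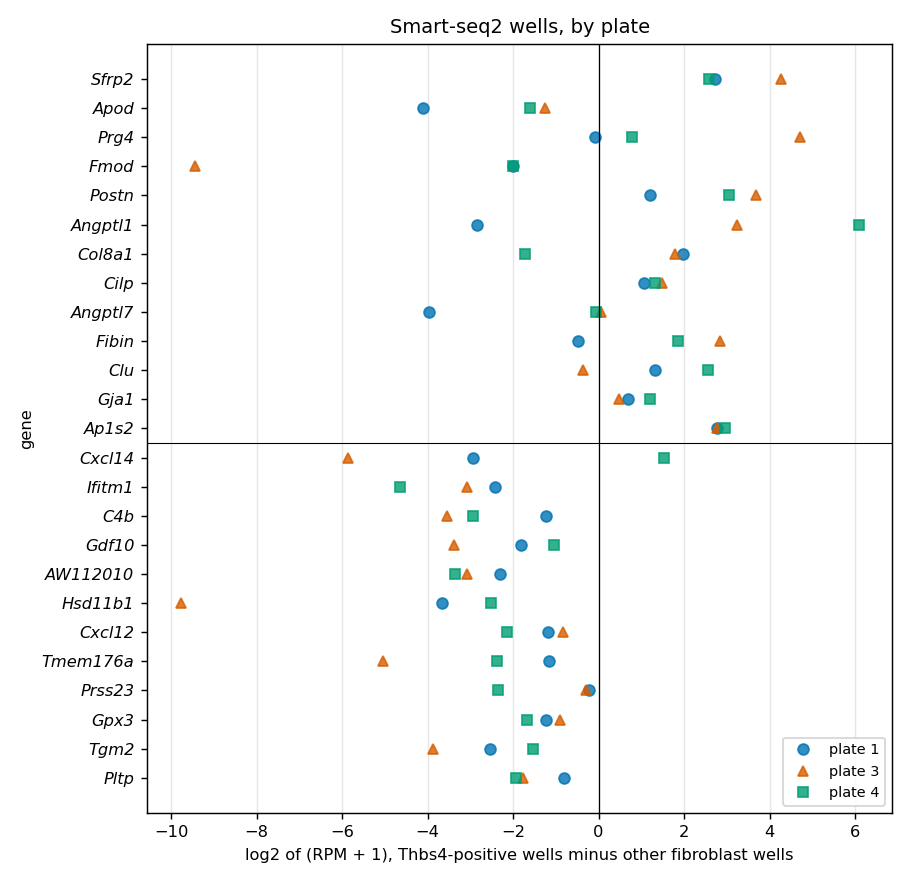
Difference in log2(RPM + 1) between Thbs4-positive and other FB wells (x axis) on plates 1, 3 and 4 (symbols) for Sfrp2 and the genes named from the 10X comparison, those higher there above the line and those lower there below it. Of the lower genes, 11 lie left of 0 on all 3 plates, and Sfrp2, Postn, Cilp, Gja1 and Ap1s2 lie right of 0 on all 3.

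The share of member wells by condition was compared over portions, the wells of 1 mouse on 1 plate with at least 10 FB wells. It was 1.29% ± 1.58 (SD, n = 6) in uninjured, 1.11% ± 2.22 (n = 4) in BDL and 1.02% ± 2.04 (n = 4) in CCl4 portions. Since portions of different plates may come from the same mouse, n may exceed the number of mice. The differences of -0.180 and -0.271 percentage points were smaller than the spread between portions (exact two-sided permutation test, adjusted p = 1 for each). The share of all Thbs4-positive wells was 11.4% ± 12.4 (n = 4) in BDL against 3.59% ± 4.68 (n = 6) in uninjured portions (exact permutation p = 0.229, adjusted 0.457) and 2.31% ± 2.13 (n = 4) in CCl4 portions (p = 0.8, adjusted 0.8 by the same exact test). The BDL portions ranged from 1.82% to 28.6%, overlapping the uninjured range of 0 to 12.5%.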

How the data were processed

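For 10X, Cell Ranger 2.1.0 was run by the authors against mm10, and the deposited values are UMI counts of each gene in each cell, not normalized and before their cell filters. For Smart-seq2, STAR was run by the authors on mm10 with added eGFP and spike-in sequences, and the deposited values are read counts of each gene in each well, without molecular identifiers. No doublet caller was run. The members and gene lists were chosen with earlier results of these data known. UMIs were summed over the cells of a group, and a count of 0 was set to 3 counts in ratios. Named were list genes with at least 100 CPM in a group, the 12 largest and smallest folds past 2-fold the same way in both libraries, and the 8 largest and smallest folds between conditions. Genes under 100 CPM, the further names among the 44 lower genes, the 6 and 13 genes that set members apart from cells with Pi16 and the genes passing the Smart-seq2 test were named after their values were seen. Smart-seq2 wells were kept within 3 median absolute deviations on reads, genes and spike-in share, and plate sums were tested with edgeR 4.0.16 in R 4.3.3 (filterByExpr, TMM, quasi-likelihood, Benjamini-Hochberg). Plate was a block, which does not remove mouse or condition, since each plate held several mice. Both procedures were tested on simulated counts, where the plate test missed most genes of moderate change and called more unchanged genes than such genes. The planned Smart-seq2 tests of member wells against other FB wells and of their levels by condition could not be fitted, since 1 plate and 0 portions had at least 5 member wells, and the test on all Thbs4-positive wells was chosen after seeing the data. DESeq2 1.42.0 was an alternative.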

Additional observations from a re-analysis of the deposited data

Results flagged for a closer look

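The share of member wells was 4.44% in 1 of the 4 BDL portions and 0 in the others, and 4.08% in 1 of the 4 CCl4 portions and 0 in the others, so that in each condition 1 portion lay far from the rest. The share of Thbs4-positive wells was 12.5% in 1 of the 6 uninjured portions, from plate 3, far above the next at 3.85%. At the 95% limit used, chance sets apart a sample in about 1 in 20 groups of normally distributed values, a form that shares mostly at 0 do not have. In data outside the comparisons, 34 of 7310 cells of the HSC isolation 72 h after CCl4 (0.465%) had a Thbs4 UMI, against 2 of 6850 uninjured (0.0292%), at median depths of 11344 and 6718 UMIs, and 4 of 5454 after 6 weeks of CCl4. Of those 34 cells, 7 had FB markers and 20 had VSMC markers, against 606 and 4238 of all 7310 cells.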

How the results depend on the processing

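Over the alternatives to the 10X and Smart-seq2 comparisons, 92 values stayed, 38 moved and 9 reversed. A 10X share stayed when it lay inside the binomial interval of the main share, and a gene count when it was close to the main count. A difference in the share of member wells stayed when it kept its sign, and all 9 reversals were of such differences. For named genes 455 10X folds stayed close to the main fold, 167 moved and 12 reversed to the other side of 1. A move was thus a shift in size and not a change of side. With at least 3 UMIs of Thbs4 the uninjured share of members was 1.33%. With at least 1 UMI the shares were 3.90% and 4.76%, and 31 genes were higher and 28 lower in both libraries, with 37 lower uninjured, 1 of the 15 and 15 of the 44 being shared. With cells of 3 or more other-type markers left out, 13 CCl4 members remained, their share was 2.01%, 621 genes were higher and 334 lower in the CCl4 library, and 650 and 408 between conditions. Against cells that met no gate, 29 genes were higher and 72 lower in both libraries, and 88 and 147 uninjured. At 20 CPM the counts were 41 and 106 in both, 165 and 278 uninjured, 423 and 489 after CCl4, and 779 and 540 between conditions. Without each gene's 3 highest member cells, 2 were higher in both, 8 uninjured, 14 after CCl4 and 87 between conditions, where 220 were lower.

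Apod in CCl4 members was at 0.599 with at least 3 Thbs4 UMIs, and at 0.411 uninjured and 0.631 after CCl4 without its 3 highest cells. Ifit3 between conditions was at 0.637 with at least 3 Thbs4 UMIs, 0.700 with other-type cells left out and 0.804 without its 3 highest cells. With 1 Thbs4 UMI, Cilp and Col8a1 after CCl4 were at 0.986 and 0.920. Kera between conditions was at 1.97 with other-type cells left out and Chad at 1.24 among members with FB markers, both then resting on the 3 counts set for 0. Fmod was at 0.994 uninjured without the tendon-gene members, and at 0.916 after CCl4 without its 3 highest cells.

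In the Smart-seq2 test, DESeq2 gave 52 higher and 977 lower genes, against 1 and 4 by edgeR, a Thbs4 limit of 20 RPM gave 0 higher genes, and portions in place of plates gave 0 and 0, with 184 genes at an unadjusted p under 0.05. Leaving out a plate gave 0 to 7 higher and 1 to 10 lower genes. Without the plate as a replicate block, 1 gene was higher and 3 lower, and Cxcl14 was at a log2 fold change of 0.74. With portions, Angptl1 was at -9.72, Prg4 at -4.52, Gja1 at -0.57 and Prss23 at 0.11. Leaving out a plate moved Col8a1 from -0.0116 to 1.89 and Angptl1 from -0.97 to 5.45. The share of member wells differed between BDL and uninjured portions by 0.0557 points with a limit of 20 RPM, and by -1.29 to 0.331 when a portion was left out. For CCl4 the range was -1.29 to 0.240, and with the plate as a replicate block the differences were -1.15 (BDL) and -0.0213 (CCl4). The cause of these shifts was not tested. Leaving out wells with other-type markers left no plate to test. The 116 members, their 10X libraries without replicates and the 31 Thbs4-positive wells limit the precision of every value.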
